A study of Triticum aestivum with 12 samples.

Results

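Anthers of ‘Mv 17-09’, a winter wheat (Triticum aestivum) whose fertility is sensitive to heat, were compared after heat stress and in controls. Of the 12 RNA-seq libraries of the series, 6 were chosen by their cultivar label: 3 from plants held for 24 h at 35 °C around the onset of meiosis, and 3 from untreated plants at a matching stage. The other 6 libraries come from the tolerant cultivar ‘Ellvis’ and are used only where the heat effects of both cultivars are compared. Anthers were taken at the end of the treatment, and replicates were labelled only by number, so that p-values here reflect only how far these libraries varied.

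An anther holds the meiocytes, which divide into tetrads of microspores, and around them the tapetum, the inner wall layer that feeds them and secretes the enzymes and precursors of the pollen wall. The tapetum is governed by a cascade of transcription factors, described mainly in Arabidopsis and rice, in which DYT1 and TDF1 act early, AMS next, and MS188 and MS1 later. High temperature at meiosis is known to disturb the tapetum, spindles and the actin cytoskeleton of cereal anthers. RNA of all anther tissues was sequenced together, hence fewer cells of a type and less RNA per cell cannot be told apart in any value given here.

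Each library was counted over 266760 gene models, of which 140822 had at least 1 count in the 6 libraries. Control libraries held 15867579 to 20846135 counts and heat-stressed libraries 9336312 to 9670186, so depth moved with the treatment. Low-confidence models, which lack the evidence required of high-confidence genes, took 26.7 to 27.4% of counts after heat stress and 23.31 to 23.9% in controls. The spread was larger after heat stress: the biological coefficient of variation was 0.123 there and 0.0826 in controls. The first principal component held 84.0% of the variance and parted the groups, while the second (6.85%) set heat-stressed replicate 1 apart from the other heat-stressed libraries. Levels are given as CPM, counts divided by a library's scaled total and brought to a common size, which compare a gene between libraries but not genes of different length.

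Enough counts for a test were found in 59160 gene models. Heat stress raised 3832 of them, or 6.48% and lowered 5038, or 8.52%. A gene was said to rise or fall at a Benjamini-Hochberg adjusted p under 0.05 in the quasi-likelihood test of edgeR together with a change of at least 2-fold, and a gene without a call missed at least 1 of these criteria. The 3 heat-stressed libraries all lay above the 3 controls for 13930 models (23.5%) and all below them for 14518 (24.5%). Decreases made up 56.8% of the changes. With library totals in place of TMM scaling, which sets the bulk of genes to no change, 4688 models rose and 4353 fell, decreases were 48.1%, and the median log2 fold change of all models moved from 0.01 to 0.11. With all libraries thinned to the smallest total, 3379 rose and 4455 fell.

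The direction of the changes differed with the level of the gene. Among 1086 models over 100 CPM, 16.02% fell and 3.41% rose. At 20 to 100 CPM, 8.28% of 7813 fell and 2.83% rose, and at 5 to 20 CPM, 6.67% of 18284 fell and 3.56% rose. At 1 to 5 CPM, the class with the most models (26947), 8.89% fell and 8.21% rose. At up to 1 CPM the order turned, with 14.1% of 5030 models rising and 11.99% falling. The share that rose was lower in the 3 classes above 5 CPM than in those below, and the share that fell was largest over 100 CPM. Models at up to 1 CPM, and some at 1 to 5 CPM, could pass the count filter through only the group in which they were higher. That favours a call, so the shares of these low classes cannot be read as a response to heat stress alone.

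The balance of large changes depended on their size. At least 4-fold changes numbered 991 up and 1461 down, at least 16-fold changes 196 up and 204 down, and at least 128-fold changes 22 up and 41 down. No count in any control was found for 20 tested models, which all rose, and their summed counts after heat stress were 27 to 717. No count in any heat-stressed library was found for 46 tested models, which all fell from summed control counts of 54 to 438. Such models passed the filter only through the group in which they were counted, so that a difference was bound to be called.

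**Figure D1:**
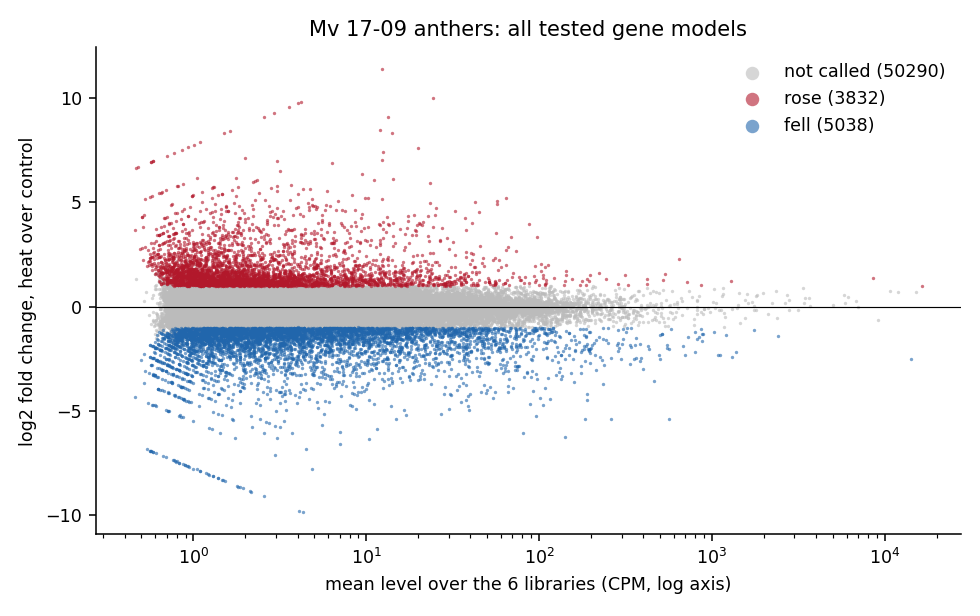
Log2 fold change of each tested gene model in ‘Mv 17-09’ (heat over control) against its mean CPM over the 6 libraries, on a log axis. Red points are the 3832 models that rose, blue points the 5038 that fell and grey points the rest, and over 100 CPM blue points (174) outnumber red ones (37).

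The gene classes did not respond alike. Low-confidence models rose more often than they fell (890 up and 600 down of 10089 tested), and high-confidence genes fell more often (2939 up and 4436 down of 49004). The median log2 fold change was 0.16 in the former and -0.02 in the latter. By subgenome, 6.27% rose and 8.54% fell on A chromosomes, 6.56% and 8.17% on B, and 6.52% and 8.78% on D. Single chromosomes ranged from 5.17% up and 10.3% down on 4D to 7.58% up on 3D and 7.52% down on 2A, and no chromosome stood far from these values. The 391 tested models with no assigned chromosome had 10.7% up and 11.3% down.

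Of the 4 gene lists that the study drew up from orthologs, the tapetum list held the most changes. Of its 202 genes 117 were tested, 20 of which rose and 56 fell, or 17.1% and 47.9% against 6.48% and 8.52% of all tested models. Its median log2 fold change was -0.80, where that of all tested models was 0.01. The summed level of the list was 23405, 24758 and 26380 CPM in the controls and 8721, 7184 and 7905 CPM after heat stress. The meiosis list had 4 up and 5 down of 141 tested (209 listed), at a median of 0.03. These small counts moved with single libraries: without heat-stressed replicate 1 the rises were 7 and without replicate 3 they were 10, and the decreases were 9 without control replicate 3 or heat-stressed replicate 3. The spindle list had 3 up and 31 down of 324 tested (383 listed), at a median of -0.19, and the actin list 3 up and 13 down of 76 tested (108 listed), at a median of -0.08. The spindle rises were 6 without control replicate 2, and the actin rises 5 without heat-stressed replicate 2. Genes named because they changed most within a family had to have groups that do not overlap, which is therefore a condition of their choice.

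**Figure D2:**
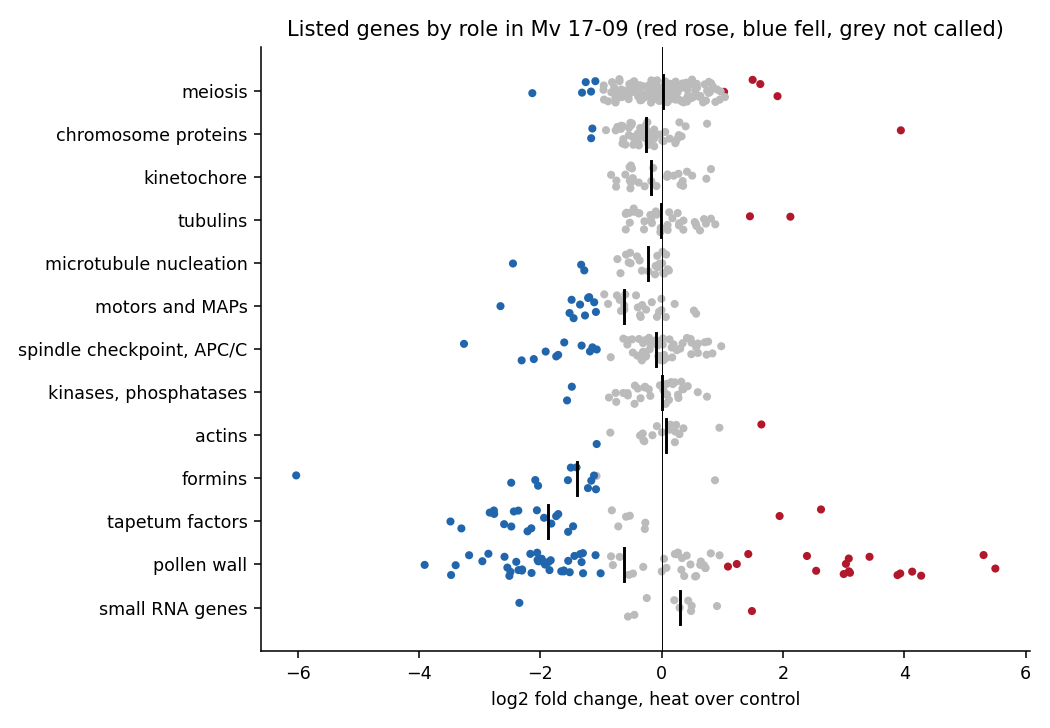
Log2 fold change (heat over control) of tested genes of the 4 lists in ‘Mv 17-09’, for 13 roles, with 1 point per gene and a black bar at the median of each group. Most formins (12 of 13) and tapetum factors (24 of 26) lie to the left of 0, with medians of -1.40 and -1.88. So do most motors and microtubule-associated proteins (29 of 33) and chromosome proteins (49 of 62), with medians of -0.61 and -0.27. Of pollen wall genes, 44 of 80 lie there (median -0.62), near the share of all tested models (29026 of 59160). Kinetochore genes hold no coloured point.

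The early tapetal regulators fell in every copy. In the family listed as DYT1 and AMS, bHLH factors of early tapetum development, all 6 copies fell, and the family's summed level was 341, 322 and 347 CPM in controls against 94.6, 90.8 and 89.0 CPM after heat stress. The most abundant copy, DYT1/AMS-6A (TraesCS6A03G0158700, chromosome 6A, 41943657 to 41946590), had 97.4, 91.2 and 95.9 CPM in controls and 26.3, 19.7 and 22.3 CPM after heat stress, a log2 fold change of -2.06 (SE 0.10, adjusted p = 1.35e-09 from edgeR). The annotation names it after TDR, the rice counterpart of AMS. Each heat-stressed library was thus far below each control. DYT1/AMS-6D (TraesCS6D03G0144300), chosen as the largest change with groups that do not overlap, had a log2 fold change of -2.36 (SE 0.10, adjusted p = 3.96e-10 from edgeR).

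TDF1, an R2R3 MYB factor that stands early in the cascade, fell further. TDF1-4B (TraesCS4B03G0536300, chromosome 4B, 412625225 to 412626934) had 44.2, 51.0 and 42.9 CPM in controls and 4.49, 5.42 and 4.08 CPM after heat stress. This was a fall of 3.30 on the log2 scale (SE 0.13, adjusted p = 1.98e-10 from edgeR). TDF1-4A (TraesCS4A03G0232500) fell by 2.76 and TDF1-4D (TraesCS4D03G0476500) by 2.77 on the log2 scale (adjusted p = 6.11e-08 and 8.76e-09 from edgeR). In the 4A copy the heat-stressed replicates spread from 3.57 to 9.82 CPM, still well under the controls at 43.4 to 47.8 CPM.

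The later regulators, MS188 and MS1, showed the same direction. MS188, a MYB factor (MYB80) that activates sporopollenin genes in Arabidopsis, had a summed level of 118, 146 and 141 CPM in controls and 19.6, 27.5 and 29.5 CPM after heat stress. Its copies MS188-2A (TraesCS2A03G0818800), MS188-2B (TraesCS2B03G0905300) and MS188-2D (TraesCS2D03G0760400) fell by 2.44, 2.60 and 2.15 on the log2 scale. For MS1, a PHD-finger protein of late tapetum development, the sums were 123, 115 and 126 CPM in controls and 21, 14.6 and 18.9 CPM after heat stress. MS1-5B (TraesCS5B03G0608200, chromosome 5B, 411993241 to 411995882) fell from 26.3, 22.8 and 24.9 CPM to 2.65, 1.64 and 2.30 CPM, by 3.48 on the log2 scale (SE 0.16, adjusted p = 6.83e-10 from edgeR). MS1-5A (TraesCS5A03G0593100) and MS1-5D (TraesCS5D03G0557000) fell by 2.83 and 2.48 on the log2 scale.

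Other tapetum factors did not move alike. TIP2, a bHLH factor needed for tapetum differentiation in rice, fell in all 3 copies, from sums of 91.0, 91.4 and 76.0 CPM to 21.7, 33.5 and 25.8 CPM. The closely related EAT1 and bHLH010 families had no call: their 3 tested copies each had log2 fold changes of -0.82 to -0.28 and -0.72 to -0.27, all under 2-fold. Both tested members of the family listed as MYB33 rose. For MYB33-6B (TraesCS6B03G0753700), which the annotation calls MYB30-like, levels were 0.194, 0.408 and 0.570 CPM in controls and 2.24, 2.35 and 2.83 CPM after heat stress (log2 fold change 2.63, SE 0.37, adjusted p = 5.94e-05 from edgeR). MYB33-6B was chosen as the largest change of its family with groups that do not overlap, so the gap between its groups was a condition of the choice. Its low controls also mean that it passed the count filter only through the heat-stressed libraries.

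The sporopollenin pathway, which builds the tough polymer of the outer pollen wall from fatty acids, fell along almost its whole length. Of the 32 tested genes of its 10 families, 29 fell and none rose, and the summed level was 20773 to 23599 CPM in controls and 5137 to 6716 CPM after heat stress. The families ACOS5, CYP703A2, CYP704B1, PKSA, PKSB, TKPR1, TKPR2, MS2 and ABCG26 fell in every tested copy. ABCG15, an exporter of wall lipids in rice, was the exception, with log2 fold changes of 0.32 to 0.72 in 3 copies, none of which reached 2-fold.

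At the entry of the pathway, ACOS5-2B (TraesCS2B03G0757300), an acyl-CoA synthetase that activates the fatty acid, had 1971, 2228 and 2401 CPM in controls and 427, 380 and 448 CPM after heat stress. It fell by 2.40 on the log2 scale (SE 0.09, adjusted p = 1.59e-10 from edgeR). The cytochrome P450 hydroxylases CYP703A2-7D (TraesCS7D03G0731000) and CYP704B1-4B (TraesCS4B03G0752700) fell by 2.14 and 1.65 on the log2 scale. For CYP704B1-4B the levels were 1223, 1332 and 1425 CPM in controls and 497, 385 and 382 CPM after heat stress.

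The polyketide steps that follow, in which the activated acid is extended and reduced, held the deepest falls. PKSB-5A (TraesCS5A03G0006300, chromosome 5A, 3306978 to 3308595), a polyketide synthase, went from 176, 211 and 222 CPM to 11.7, 11.96 and 17.0 CPM (log2 fold change -3.91, SE 0.14, adjusted p = 8.92e-11 from edgeR). Its relative PKSA-1D (TraesCS1D03G0407100) had 1346, 1260 and 1324 CPM in controls and 338, 246 and 292 CPM after heat stress, a fall of 2.16 on the log2 scale. TKPR2-3D (TraesCS3D03G0060200), a reductase of the polyketide product, had 154, 179 and 198 CPM in controls and 12.8, 14.2 and 20.9 CPM after heat stress (log2 fold change -3.47, SE 0.15, adjusted p = 4.24e-10 from edgeR). TKPR1-5A (TraesCS5A03G0669000), the other reductase, fell by 2.59 on the log2 scale.

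The fatty alcohol and export steps fell less. MS2-4A (TraesCS4A03G0036600), a fatty acyl reductase, kept 534, 444 and 545 CPM of the 1145, 1217 and 1443 CPM in controls (log2 fold change -1.32, SE 0.10). The transporter ABCG26-7A (TraesCS7A03G0920900) kept 379, 236 and 270 CPM of 690, 678 and 811 CPM (log2 fold change -1.30, SE 0.14). In both the groups did not overlap, and the adjusted p from edgeR was 1.04e-07 and 3.40e-06.

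**Figure D3:**
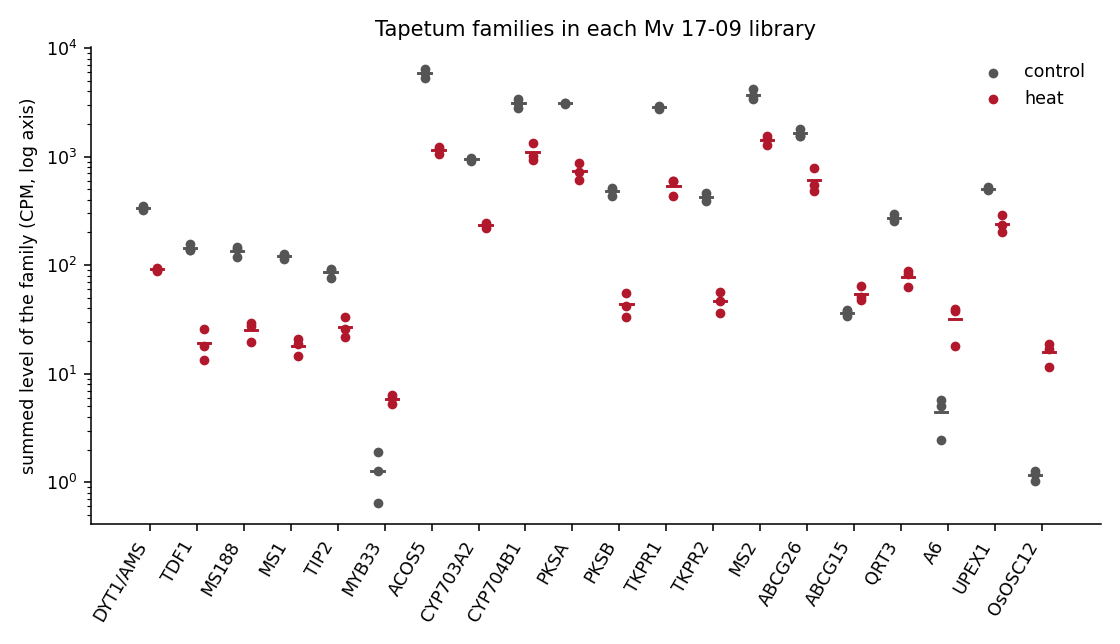
Summed CPM of all copies of each tapetum family in the 3 control (grey) and 3 heat-stressed (red) ‘Mv 17-09’ libraries, on a log axis, with a bar at the mean of each group. Heat-stressed points lie below the controls from DYT1/AMS to TIP2 and from ACOS5 to ABCG26, and above them for MYB33, ABCG15, A6 and OsOSC12.

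Genes of tetrad release were split. QRT3, a polygalacturonase that loosens pectin between microspores in Arabidopsis, fell in all 3 copies, with QRT3-2B (TraesCS2B03G1128800) at 143, 130 and 156 CPM in controls and 45.9, 31.2 and 40.8 CPM after heat stress (log2 fold change -1.87, SE 0.12). UPEX1, a galactosyltransferase of wall formation, fell in 4 of 5 copies, by up to 2.36 on the log2 scale in UPEX1-3B (TraesCS3B03G1034800). A6, listed for callose degradation and annotated as a glucan endo-1,3-beta-glucosidase, rose in its 3 tested copies of 7. A6-7B (TraesCS7B03G0418300) had 0.777, 2.60 and 2.22 CPM in controls and 9.79, 20.4 and 19.4 CPM after heat stress, a log2 fold change of 3.10 (SE 0.31, adjusted p = 2.28e-06 from edgeR). The lowest value of both groups was in the replicate numbered 1.

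Wax and pollen coat genes supplied most of the 20 increases of the tapetum list. OsOSC12, a triterpene synthase whose rice counterpart is needed for the pollen coat, rose in all 3 copies, and OsOSC12-7A (TraesCS7A03G0007700) went from 1, 3 and 10 counts to 58, 58 and 45 counts (log2 fold change 4.28, SE 0.40, adjusted p = 1.12e-06 from edgeR). CER1 and CER3, which make wax alkanes from very-long-chain fatty acids, rose in 4 of 9 tested members each, against 6.48% of all tested models. CER1-1B (TraesCS1B03G0495300) had 0.389, 0.459 and 0.9497 CPM in controls and 10.4, 12.8 and 8.27 CPM after heat stress (log2 fold change 4.13, SE 0.28, adjusted p = 3.18e-08 from edgeR). Controls of OsOSC12-7A and CER1-1B were too low to pass the count filter without the heat-stressed libraries, which favours a call. CER3-5D (TraesCS5D03G0532300) rose by 3.43 on the log2 scale. KCS genes, the condensing enzymes that lengthen these acids, were mostly too low to test (13 of 85), and of those tested 3 rose and 1 fell. KCS-1D (TraesCS1D03G0933000) had 2 counts over the 3 controls and 64 over the heat-stressed libraries, a ratio of 55.9 (95% exact interval 14.8 to 471, counting error only).

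Of 11 tested small RNA genes of the tapetum list, 1 rose and 1 fell. The family listed as Dcl5, which makes phased small RNAs in cereal anthers but which the annotation calls an endoribonuclease of the IRE1 type, did not reach 2-fold in any copy. Dcl5-6D (TraesCS6D03G0828600) had 31.9, 32.1 and 31.3 CPM in controls and 18.6, 25.6 and 20.6 CPM after heat stress, a log2 fold change of -0.56 (SE 0.11, adjusted p = 0.00118 from edgeR). Dcl5-6B (TraesCS6B03G1162300) and Dcl5-6A (TraesCS6A03G0951600) had log2 fold changes of -0.45 and -0.25 (adjusted p = 0.0019 and 0.16 from edgeR). CLSY3-3D (TraesCS3D03G0531900), a chromatin remodeller that guides small RNA production, fell from 9.07, 9.17 and 7.47 CPM to 1.73, 1.53 and 1.78 CPM, whereas the other call among 8 tested CLSY3 members was a rise, of 1.49 on the log2 scale.

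Markers of meiotic prophase kept their summed level as a set, while those of the tapetum fell. The 41 listed markers of meiocytes in prophase summed to 191 to 219 CPM in controls and 188 to 208 CPM after heat stress, with 2 up and 2 down of 29 tested and a median log2 fold change of 0.09. Within this sum, mean family levels moved both ways, from 49.9 to 31.8 CPM for ASY1 and from 18.8 to 25.9 CPM for AtSPO11-1. The whole meiosis list summed to 2570, 2588 and 2406 CPM in controls and 2180, 2213 and 2138 CPM after heat stress. Markers of proliferating cells (Aurora kinases, TPX2, Kin12, Cdc20, MAP65 and Cdk1) went from 395 to 428 CPM to 191 to 201 CPM, and 17 of 34 tested fell. This set was chosen with earlier results of these data known, and its 5 tested Cdk1 copies had no call. Other genes of cell division were mixed. None of 27 tested kinetochore genes (median log2 fold change -0.17) and 23 tested APC/C subunits (median 0.13) had a call, where 8.52% of all tested models fell. Outside the set, all 3 copies of Mozart1 fell, and 49 of 62 tested genes of chromosome structure had a log2 fold change below 0. No marker of the tapetum, prophase or proliferating sets was at 0 in all 6 libraries, except 2 low copies of the sporopollenin families. The part of shifts in cell makeup or stage in the tapetal decreases was not tested.

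The meiosis genes that changed were few and of several kinds. Of the 4 that rose 2 were serpins, protease inhibitors listed as AtSRP2 and AtSRP3, with 7 members tested of 45. ASY1-5B (TraesCS5B03G0739200), a protein of the chromosome axis, had 15.03, 14.3 and 12.4 CPM in controls and 5.71, 5.73 and 6.07 CPM after heat stress (log2 fold change -1.25, SE 0.13, adjusted p = 4.50e-06 from edgeR). The other copies of ASY1 had log2 fold changes of -0.07 and -0.78 and did not reach 2-fold. ZIP4-3B (TraesCS3B03G1072500), a scaffold of crossover formation, had 7.71, 9.07 and 5.38 CPM in controls and 1.94, 3.58 and 3.46 CPM after heat stress (log2 fold change -1.31, SE 0.24, adjusted p = 7.07e-04 from edgeR).

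AML1/AML4-1A (TraesCS1A03G0016300), a Mei2-like RNA-binding protein, had the most counts of the meiosis genes that changed, with 239, 241 and 222 CPM in controls and 110, 108 and 110 CPM after heat stress. Its log2 fold change of -1.09 (SE 0.07, adjusted p = 3.51e-08 from edgeR) fell just short of 2-fold with library totals. DMC1, the meiosis-specific strand exchange protein, had a call in 1 of 3 tested copies. DMC1-5A (TraesCS5A03G0375300) rose from 0.648, 0.611 and 0.760 CPM to 1.53, 3.37 and 2.72 CPM (log2 fold change 1.91, SE 0.35, adjusted p = 5.98e-04 from edgeR). Its low controls mean that DMC1-5A passed the count filter only through the heat-stressed libraries, which favours a call. It was also chosen as the largest change of its family with groups that do not overlap. Dmc1-5D (TraesCS5D03G0353500), known from wheat work on temperature tolerance of chromosome pairing, had 4.86, 4.59 and 4.56 CPM in controls and 5.61, 7.26 and 7.85 CPM after heat stress. Its groups did not overlap, but its log2 fold change of 0.56 (SE 0.17, adjusted p = 0.0159 from edgeR) was under the 2-fold limit. PTD-2B (TraesCS2B03G0224500), a crossover protein, rose by 1.499 on the log2 scale at 5 to 12 counts a library.

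In the spindle list 9.57% of tested genes fell, close to the 8.52% of all tested models. Of the 31 decreases 10 were motors and microtubule-associated proteins, 11 checkpoint and APC/C genes, 3 nucleation genes, and 2 each kinases, severing enzymes and chromosome proteins, with 1 at minus ends. Motors and microtubule-associated proteins had 10 of 33 tested down, none up, and a median log2 fold change of -0.61. MAP65-1A (TraesCS1A03G0915600), which bundles antiparallel microtubules, fell from 21.2, 22.0 and 17.3 CPM to 3.57, 2.97 and 3.04 CPM, by 2.66 on the log2 scale (SE 0.15, adjusted p = 7.11e-09 from edgeR). All 3 copies of TPX2, a spindle assembly factor, fell, with sums of 58.8, 55.9 and 52.6 CPM in controls and 16.8, 23.1 and 23.25 CPM after heat stress. TPX2-2B (TraesCS2B03G0607000) fell by 1.45 on the log2 scale. Aurora kinase-3B (TraesCS3B03G0296700) and the kinesin Kin12-5D (TraesCS5D03G0187900) fell by 1.56 and 1.21.

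Among 25 tested microtubule nucleation genes the 3 calls were the copies of Mozart1, a small subunit that recruits the gamma-tubulin ring complex, all of which fell. Log2 fold changes were below 0 in 18 of the 25, and in 29026 of all 59160 tested models. Augmin subunits, which branch new microtubules from old ones, summed to 180, 175 and 168 CPM in controls and 139, 135 and 138 CPM after heat stress, without a call in 6 copies. The levels were 6.22, 7.24 and 7.47 CPM in controls and 2.14, 3.99 and 2.20 CPM after heat stress for Mozart1-1D (TraesCS1D03G0595700), a log2 fold change of -1.33 (SE 0.22, adjusted p = 2.60e-04 from edgeR). Mozart1-5A (TraesCS5A03G1140800) fell by 1.28, and Mozart1-5B (TraesCS5B03G1212900) by 2.45 from 25, 25 and 28 counts to 0, 2 and 6. By contrast, tubulins, the building blocks of microtubules, had 2 up and none down of 39 tested, with a median log2 fold change of -0.01. Of these, beta-tubulin-4A (TraesCS4A03G0750600) rose from 5, 5 and 8 counts to 9, 28 and 9, a call that rests on heat-stressed replicate 2 (adjusted p = 0.0741 from edgeR without it).

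The checkpoint genes that changed were Cdc20, BubR1 and Mad1. Cdc20 activates the anaphase-promoting complex (APC/C), the ubiquitin ligase that starts chromosome separation. Of its 12 tested copies 8 fell, and the family sum went from 190, 181 and 164 CPM to 67.8, 69.8 and 63.3 CPM. Cdc20-2A (TraesCS2A03G1044300) had 54.2, 53.0 and 48.4 CPM in controls and 10.7, 13.8 and 16.9 CPM after heat stress (log2 fold change -1.91, SE 0.13, adjusted p = 2.95e-08 from edgeR), and Cdc20-5B (TraesCS5B03G0495400) fell by 3.26 on the log2 scale. None of the 23 tested APC/C subunits had a call, at a median log2 fold change of 0.13. BubR1-6D (TraesCS6D03G0350800) and Mad1-3D (TraesCS3D03G0838800), parts of the checkpoint that restrains Cdc20, fell by 1.74 and 1.32 on the log2 scale. These were the deepest falls of their families, in which 2 of 6 and 1 of 4 tested copies fell. Other copies had log2 fold changes of up to 0.84 for BubR1 and 0.57 for Mad1. The checkpoint families Mad2, Bub1, Bub3 and Mps1 had no call.

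Kinetochore genes, 27 of which were tested, held no call in either direction, with log2 fold changes from -0.83 to 0.81. Of 62 tested genes of chromosome structure, 1 rose and 2 fell, although 49 had a log2 fold change below 0 (29026 of all 59160 models). The gene that rose, Topo II-5B (TraesCS5B03G0156800), went from 0, 1 and 4 counts to 10, 20 and 18. Microspherule-5B (TraesCS5B03G1119000), listed with proteins of microtubule minus ends, spread widely after heat stress, at 12.3, 20.6 and 37.1 CPM against 70.0, 67.7 and 61.5 CPM in controls. Spastin-5D (TraesCS5D03G0449800), listed with microtubule severing enzymes, fell from 23, 38 and 31 counts to 2, 0 and 2.

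Formins, which nucleate and elongate unbranched actin filaments, held 11 of the 13 decreases of the actin list. All 11 were among 13 tested formins, none of which rose, with a median log2 fold change of -1.40 and family sums of 117, 113 and 136 CPM in controls and 72.8, 78.6 and 60.004 CPM after heat stress. The deepest fall was that of formin-5A (TraesCS5A03G0991800, chromosome 5A, 607955383 to 607956414), from 176, 299 and 241 counts to 0, 2 and 4 (log2 fold change -6.02, SE 0.35, adjusted p = 6.88e-09 from edgeR). Formin-5A passed the count filter only through the controls, which favours a call. It was also chosen as the largest change of its family with groups that do not overlap. Of 18 tested actins 1 rose and 1 fell, and profilins and villins had no call. The capping protein A-2A (TraesCS2A03G0233100), which closes filament ends, stood at the limit with a log2 fold change of -1.08, and left the calls without control replicate 2, heat-stressed replicate 1 or heat-stressed replicate 2, each time by falling just short of 2-fold. ADF-5B (TraesCS5B03G1193100), an actin-depolymerizing factor, and fimbrin-7D (TraesCS7D03G0503800), a filament bundler, rose by 1.67 and 1.63 from under 1 CPM.

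Wheat carries most genes as 3 homoeologous copies, and their agreement could be followed in 111 sets of the lists with all 3 copies tested. In 16 sets all copies fell and in 2 all rose, while 77 sets had no call. Decreases of only 1 or 2 copies occurred in 13 sets and increases of only some in 2. Of the 24 tapetum sets 14 fell in all copies, whereas none of the 31 meiosis sets did. Among the sets in which all copies fell, those of ACOS5 were nearest to each other, with log2 fold changes of -2.30, -2.40 and -2.30 for A, B and D. Copies moved in opposite directions in 1 set, actins of chromosome group 3 (1.64, 0.95 and -1.07), which is named here after its values were seen. How reads matching more than 1 copy were handled is not given in the sources used here, so like values of copies can include shared reads.

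The study designed qPCR primers for 12 genes. The pairs of the tested genes with the largest rise and fall and of the Hsp70 gene are shown, in lower case from 5′ to 3′, because they mark the transcripts that the next values describe.
TaNIP forward: ccaaagagcaagcgagctaa
TaNIP reverse: gtggccattttccaagacgaa
TaWRKY70 forward: aatggtcgatcttcccgattg
TaWRKY70 reverse: acacatgggacggatggatg
Ta70HSP forward: gcggctgggagagtacaaa
Ta70HSP reverse: acatccatccaaagttccccc

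TaNIP (TraesCS6B03G0952900, chromosome 6B, 599649693 to 599653114), an aquaporin-like channel, had 0, 0 and 2 counts in controls and 253, 325 and 203 after heat stress, a ratio of 682 (95% exact interval 188 to 5638, counting error only). TaWRKY70 (TraesCS2A03G1143500), a WRKY factor of defence responses, went the other way, from 188, 249 and 160 counts to 2, 3 and 9 (log2 fold change -4.58, SE 0.29, adjusted p = 1.98e-08 from edgeR). Ta70HSP (TraesCS3B03G0975400), a chaperone of the Hsp70 family, rose from 9.33, 12.1 and 14.6 CPM to 38.6, 34.4 and 32.1 CPM, by 1.55 on the log2 scale (SE 0.14, adjusted p = 5.47e-07 from edgeR). The heat-stressed libraries lay above the controls in TaNIP and Ta70HSP and below them in TaWRKY70.

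TaACC (TraesCS2B03G1056900), annotated as a synthase of the ethylene precursor, rose by 1.60 on the log2 scale. TaPAD (TraesCS5A03G1210200), annotated as a phenylacetaldehyde reductase, and TaN2O (TraesCS2B03G1307800), annotated as a naringenin dioxygenase, rose by 1.99 and 1.82 at 2 to 18 counts a library. TaF3D (TraesCS4B03G0902300), annotated as a flavanone dioxygenase, had a log2 fold change of -1.10 (adjusted p = 0.0183 from edgeR) and lost its call without control replicate 2 (-0.82) or heat-stressed replicate 3 (-0.91). TaGRAS, TaUNK1 and Ta21.9HSP did not pass the count filter: TaGRAS had 12, 23 and 11 counts in controls and 1, 0 and 0 after heat stress, TaUNK1 22, 33 and 12 and then 0, 2 and 0, and Ta21.9HSP, a small heat shock protein, 2, 4 and 3 and then 5, 4 and 6. Of the reference genes, TaACT (TraesCS5D03G0333200) had a log2 fold change of -0.36 and TaCYC (TraesCS6D03G0139300) of 0.55, both under 2-fold, with adjusted p = 0.00569 and 3.17e-05 from edgeR. TaCYC levels were 193, 191 and 193 CPM in controls and 294, 271 and 277 CPM after heat stress.

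The count files hold curated models of 2 further gene groups, which were picked out after the files were seen. CBF factors, known as regulators of cold-responsive genes, have 38 models, of which 15 had any count and 4 were tested. Together they held 15.1, 18.9 and 19.6 CPM in controls and 5.91, 4.50 and 5.55 CPM after heat stress, and TaCBFIVd-26.1 supplied 335 of their control counts. TaCBFIVd-26.1 went from 88, 138 and 109 counts to 1, 2 and 1 (log2 fold change -5.49, SE 0.35, adjusted p = 1.79e-08 from edgeR), which as pooled counts is a ratio of control to heat of 48.0 (95% exact interval 18.6 to 177). With so few counts after heat stress, this model passed the count filter only through the controls, which favours a call. TaCBFIVd-D22 fell from 58, 75 and 54 counts to 12, 10 and 14 (log2 fold change -1.56, SE 0.25). TaCBFIIIa-6.1 and TaCBFIIIc-D3 had log2 fold changes of -0.88 and -0.66 and did not reach 2-fold.

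Models of NLR genes, a class of intracellular immune receptors, were tested in 63 of 168 cases. None fell, against 8.52% of all tested models, and 3 rose (4.76%, against 6.48%). A log2 fold change above 0 was found in 52, with a median of 0.32, while 29026 of all 59160 tested models lay below 0. Their summed level was 480, 467 and 450 CPM in controls and 591, 599 and 573 CPM after heat stress. BST_chr1A_nlr_79, the most strongly counted of the 3 that rose, went from 315, 346 and 288 counts to 419, 426 and 388 counts in the smaller heat-stressed libraries (log2 fold change 1.18, SE 0.09, adjusted p = 1.64e-07 from edgeR).

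Outside the lists, gene models could be named only by their ID, since the sources used here give no name for them. With the smallest p among models that rose, TraesCS2D03G0061400 went from 2.59, 3.67 and 3.55 CPM to 127, 107 and 98.4 CPM (log2 fold change 5.07, SE 0.14, adjusted p = 1.54e-11 from edgeR), and TraesCS6D03G0679500 from 3, 3 and 4 counts to 366, 448 and 338. Among those that fell, TraesCS4B03G0057000LC, a low-confidence model, went from 372, 393 and 315 CPM to 14.1, 16.6 and 18.7 CPM, and TraesCS7A03G1195000 from 234, 261 and 245 CPM to 24.2, 23.2 and 26.8 CPM (log2 fold change -3.32, SE 0.09, adjusted p = 1.54e-11 from edgeR). A low-confidence model on chromosome 5D, the highest in all controls among the 10 most abundant models and noted after its values were seen, had 24526, 23349 and 24443 CPM there and 820, 3511 and 8576 CPM after heat stress. Heat-stressed libraries therefore differed widely in this model, with replicate 1 the lowest, and it fell by 2.49 on the log2 scale (SE 0.50, adjusted p = 0.0014 from edgeR).

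Changed genes also stood side by side along chromosomes. ID numbers follow the chromosome, as 799 of 803 neighbouring pairs of listed genes with RefSeq coordinates were in the order of their numbers. Along this order 42 runs of at least 4 neighbouring tested models changed in one direction, 23 downward with 113 models and 19 upward with 87. The longest held 8 models on 7B that all fell, with a median log2 fold change of -2.79, and its last member was TIP2-7B (TraesCS7B03G0035500, chromosome 7B, 12402223 to 12403943). On 7D, TIP2-7D closed a run of 6 that fell (median -3.12). TKPR2-3D opened a run of 5 on 3D and ZIP4-3B closed a run of 4 on 3B. These runs were searched for after the values were seen, and neighbours that share sequence may share reads.

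The surroundings of TIP2 were followed in the 3 subgenomes. Among the 40 tested neighbours of each copy, 20 on each side, 15 fell and 4 rose on 7A, 12 fell and 3 rose on 7B, and 13 fell and 5 rose on 7D. The share that fell was 37.5%, 30% and 32.5%, where 8.52% of all tested models fell. These windows were taken because runs ending at TIP2 had been seen on 7B and 7D, so that the shares describe the windows and are no evidence beyond those runs. Most of the decreases lay on the side of lower ID numbers. TIP2-7A (TraesCS7A03G0276400) itself fell by 2.21 on the log2 scale, TIP2-7B by 1.46 and TIP2-7D by 1.74, less than the deepest falls among their neighbours.

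**Figure D4:**
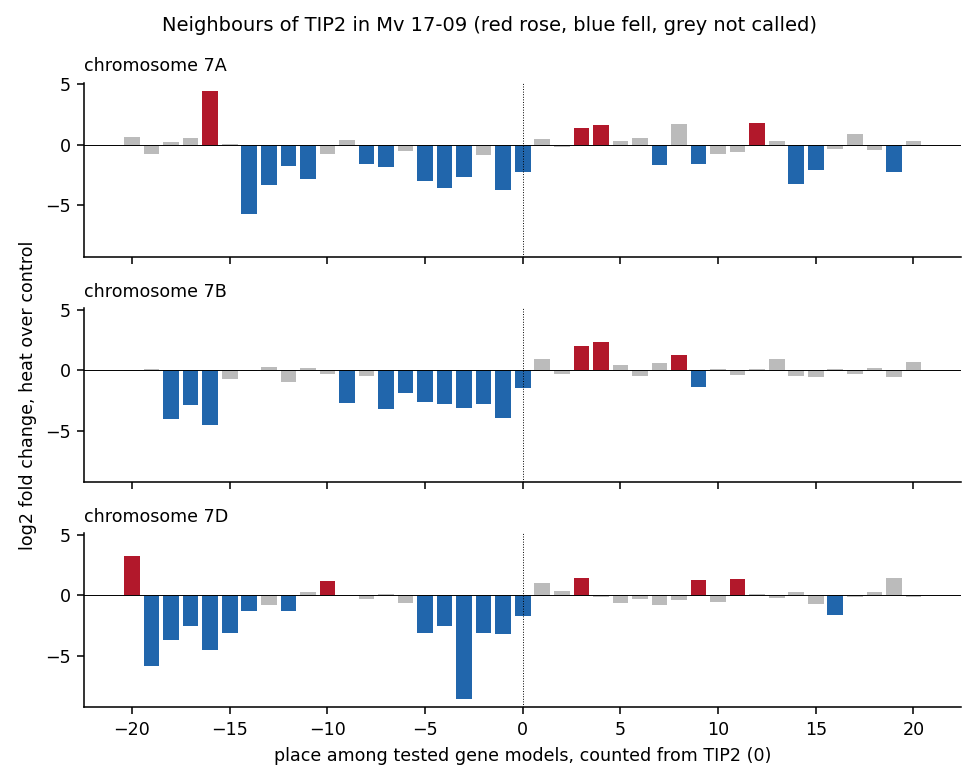
Log2 fold change (heat over control) of the 20 tested gene models on each side of TIP2 on chromosomes 7A, 7B and 7D of ‘Mv 17-09’, in the order of their ID numbers with TIP2 at 0. Blue bars fell, red bars rose and grey bars had no call, and on each chromosome blue bars gather to the left of TIP2.

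The heat effect was set beside that of ‘Ellvis’ for 72 tested genes, most of them named above, from the lists, the qPCR panel and the smallest p, with the difference tested in a fit of all 12 libraries. Most of these genes were chosen for a large or firm change in ‘Mv 17-09’, usually a fall, which favours a difference in that direction, so that their count and direction describe the chosen genes only. ‘Ellvis’ control replicate 1 is weak, with 1831675 counts. Over all 70527 models of that fit, 1031 (1.46%) had a difference of at least 2-fold in the direction of a higher response in ‘Mv 17-09’ and 2644 (3.75%) of a lower one, and without that library 1831 and 5259. The higher count was 658 to 683 without control or heat-stressed replicate 2 of ‘Mv 17-09’, or heat-stressed replicate 1 or 2 of ‘Ellvis’. Of the 72 genes 32 differed at an adjusted p under 0.05 at any size, 28 of them lower in ‘Mv 17-09’. Without ‘Ellvis’ control replicate 1 all 32 were among the 43 that passed, but 77 repeats with other settings or left-out libraries no longer did. Among the regulators, TDF1-4B had a log2 fold change of -0.29 in ‘Ellvis’ and a difference of -3.02 (adjusted p = 8.97e-06 from edgeR). Differences of -0.64 and -0.80 for TIP2-7B and TIP2-7A and of 0.22 for Ta70HSP had adjusted p of 0.209, 0.17 and 0.649 from edgeR, which does not show that the cultivars respond alike. Without ‘Ellvis’ control replicate 1 the difference of TIP2-7A was -0.94 (adjusted p = 0.0205 from edgeR).

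**Figure D5:**
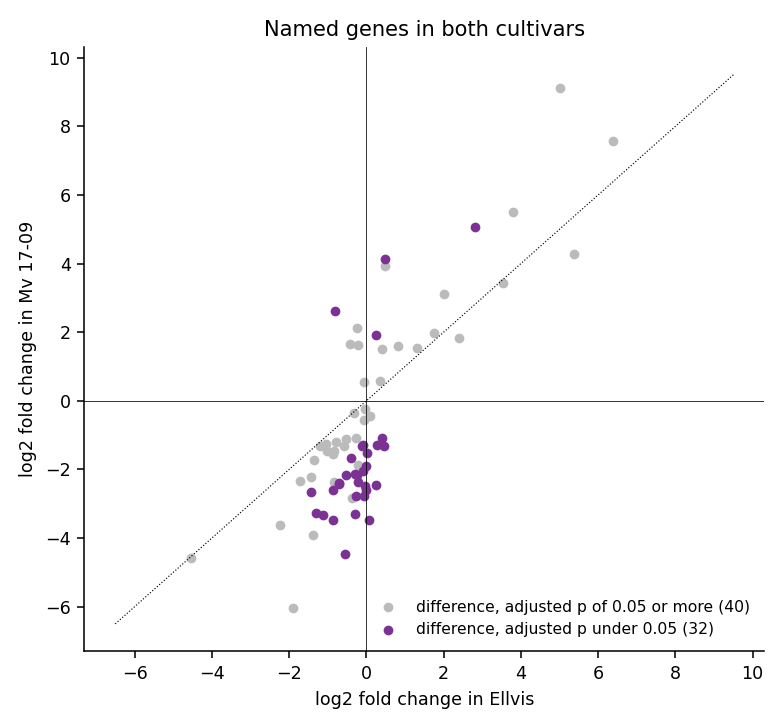
Log2 fold change (heat over control) of the 72 genes in ‘Mv 17-09’ against that in ‘Ellvis’, with a dotted line where both are equal. Purple points are the 32 genes whose difference had an adjusted p under 0.05, and 28 of them lie below the line, most genes having been chosen for their change in ‘Mv 17-09’.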

How the data were processed

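Total RNA of ‘Mv 17-09’ and ‘Ellvis’ anthers was sequenced with a directional kit. The authors checked reads with FastQC 0.11.8, trimmed and mapped them with CLC Genomics Workbench (genome IWGSC RefSeq v2.1) and deposited raw total counts per gene model. The sources used here give neither strand setting nor multiple mapping. No library repeats another.

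The 6 ‘Mv 17-09’ libraries were fitted alone with edgeR 4.0.16 in R 4.3.3. Models were kept by filterByExpr (minimum count 10, minimum total 15), scaled by TMM (factors 0.952 to 1.04) and tested by quasi-likelihood. The approximate SE divides the log2 fold change by the root of F. Differences between cultivars came from a 12-library fit. Alternatives used library totals, DESeq2 1.42.0, limma 3.58.1 with voom, other filters, thinning, a replicate block, stricter criteria (edgeR's likelihood ratio test and DESeq2 both under 1e-06) and leaving out libraries. Intervals of pooled counts are exact binomial and cover counting error only. The steps were tested on simulated data.

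Lists are the study's ortholog lists. Coordinates are from RefSeq, for 824 of 895 listed genes. Named genes were the qPCR genes, per family the most abundant member (over 5 CPM, if called) and the largest non-overlapping call, Dmc1-5D, all copies of Cdc20, Mozart1, MS1, MS188, TDF1 and Dcl5, and 2 models per direction with the smallest p outside the lists. The text gives values for a part of these. 1 gene that met the rule is not reported here. Members, lists and rule were chosen with earlier results of these data known.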

Additional observations from a re-analysis of the deposited data

Results flagged for a closer look

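The heat effect of 32 named genes differed between ‘Mv 17-09’ and ‘Ellvis’ in edgeR's test of the difference itself (adjusted p under 0.05, 12 libraries). Values are log2 fold changes in ‘Mv 17-09’ minus those in ‘Ellvis’. All 32 also passed without the weak ‘Ellvis’ control replicate 1, where 43 passed in all and the largest move of a difference was 1.23. Over all other settings and left-out libraries, 77 repeats of these differences no longer passed. Some lay near the limit, with adjusted p of 0.0491 for DMC1-5A, 0.0468 for CYP704B1-4B and 0.0402 for MYB33-6B from edgeR.

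Among tapetum regulators the difference was -1.99 for DYT1/AMS-6A and -2.17 for DYT1/AMS-6D. It was -2.72 for TDF1-4A, -3.02 for TDF1-4B and -2.50 for TDF1-4D. MS1-5B had -3.57 and MS1-5D -2.45, and MS188-2A, MS188-2B and MS188-2D had -1.74, -1.75 and -1.64. MYB33-6B had 3.42 in the opposite direction.

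Among wall genes, ACOS5-2B had -1.70, CYP703A2-7D -1.87, CYP704B1-4B -1.26 and PKSA-1D -1.95. TKPR1-5A and TKPR2-3D both had -2.60, MS2-4A had -1.78 and ABCG26-7A -1.22. CER1-1B, of wax synthesis, had 3.63.

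Of the meiosis and spindle genes, AML1/AML4-1A had -1.50 and DMC1-5A 1.65. MAP65-1A had -1.24, and Mozart1-1D, Mozart1-5A and Mozart1-5B had -1.23, -1.57 and -2.72. Microspherule-5B had -1.55, Cdc20-2A -1.91 and Cdc20-5B -1.96. Outside the lists, TraesCS2D03G0061400 had 2.24, TraesCS4B03G0057000LC -3.91 and TraesCS7A03G1195000 -2.21.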

How the results depend on the processing

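Direction depended on scaling for 1 summary: decreases were 48.1% of calls with library totals and 54.2 to 57.7% with any 1 library left out. With DESeq2 and the likelihood ratio test of edgeR both required to give an adjusted p under 1e-06, 1128 models rose and 2066 fell, low-confidence models gave 174 and 136, spindle decreases were 17, actin decreases 6, and meiosis, spindle and actin rises 0. With library totals 7 meiosis genes rose. Without a count filter, meiosis decreases were 8, spindle rises 8 and low-confidence decreases 1121, and after thinning 1 spindle gene rose. Leaving out each library gave 3510 to 4244 up and 4513 to 5643 down, 4 to 10 meiosis genes up and 5 to 9 down, 3 to 6 spindle and 2 to 5 actin genes up, and 658 to 1831 higher and 1878 to 5259 lower differences between cultivars. The cause was not tested. Of the named heat effects, 1041 of the repeats kept direction and call, 28 lost the call and 0 reversed.

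Differences between cultivars that changed sign, none with an adjusted p under 0.05, ranged over left-out libraries from -2.68 to 0.96 for CER3-5D, -0.0205 to 0.32 for Dmc1-5D, -2.39 to 4.09 for KCS-1D, -3.34 to 0.11 for OsOSC12-7A, -0.13 to 0.0305 for TaACT, -1.64 to 0.47 for TaN2O, -0.11 to 0.66 for TaPAD and -0.96 to 0.52 for TaWRKY70. With the replicate block they were 0.26 for CER3-5D and 0.28 for TaWRKY70.

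With the replicate block 3674 models rose and 4928 fell. Same-numbered libraries deviated with correlations of 0.061, 0.102 and 0.0059 over 27183 models, and differently numbered ones with -0.0909 to 0.0182. Heat-stressed replicate 3 was nearest to control replicate 2, at 0.0106. With 3 libraries in each group these values cannot decide whether the numbers pair the samples. Heat-stressed libraries held fewer counts than controls, so that low models are measured less precisely there.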
